A study of Rattus norvegicus with 13 samples.

Results

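Rat islets made to express Nkx6.1 were compared directly with islets made to express Pdx1, on 5 Nkx6.1 arrays and 3 Pdx1 arrays of a series of 13. The islets came from male Sprague-Dawley rats, about 200 islets per condition, and were exposed for 18 h to an adenovirus that carried hamster Nkx6.1 or mouse Pdx1 behind the CMV promoter, then kept for 60 h more in RPMI medium with 8 mM glucose and 10% serum. The CMV promoter is active in many cell types, and which islet cells expressed the transgene was not measured here. The other 5 arrays held islets given the same vector with beta-galactosidase (bGAL). They took no part in the test, and their values are given beside some of the results. Each array set islet RNA against a commercial pool of rat RNA, so 0 on the log2 scale marks a probe as bright with islet RNA as with the pool. The arrays of a group are separate islet isolations, per the labels.

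Nkx6.1 and Pdx1 are homeodomain transcription factors of the developing pancreas and the adult beta cell. Pdx1 is needed for the pancreas to form and later binds and activates the insulin gene and other beta-cell genes. Nkx6.1 acts largely as a repressor that keeps beta cells from taking other endocrine fates, and it can raise beta-cell replication when forced in rat islets. The series title concerns a peptide cut from VGF, a secreted protein of neurons and endocrine cells.

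A probe was tested when it had at least 2 values in each group, which kept 25600 of the 26962 probes that are not control spots. Of these, 15278 carried a symbol, for 12498 genes. Leaving out the bGAL arrays brought in 7635 probes, 29.8% of those tested, that had fewer than 2 values on the bGAL arrays. Islet identity was clear in both groups. The log2 ratio of Ins1, an insulin gene, was 3.79 to 7.49 in Nkx6.1 islets and 4.26 to 5.25 in Pdx1 islets. Gcg, which encodes glucagon, stood at 5.38 to 8.24 in Nkx6.1 islets and 5.92 to 6.49 in Pdx1 islets, whereas the liver gene Alb lay at or below -3.70 on every array and probe.

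A pair of Nkx6.1 arrays stood apart. Nkx6.1 1 had no value for 61.1% of the probes, against 0.230% to 15.5% on the others, so most results below rest on 4 Nkx6.1 arrays. Nkx6.1 2 had a wider spread, with an SD of 2.08 over the 10410 probes measured on all 8 arrays, against 1.39 to 1.74 on the others. Its correlation with the other arrays was 0.596 to 0.722, while the other 7 correlated at 0.826 to 0.967 among themselves. Where a call named below changes without Nkx6.1 2, it is given both ways. The Pdx1 array titles also lack an ending that the titles of the other arrays carry. What it stands for is not given in the sources used here, so the virus and whatever that ending marks cannot be told apart.

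The targeted genes gave no check of the labels. The rat Nkx6-1 probe read 3.77, 2.31, 3.42, 2.90 and 3.53 in Nkx6.1 islets and 3.22, 2.51 and 3.51 in Pdx1 islets. The groups overlapped, and the difference of 0.11 did not pass (limma adjusted p = 0.942; exact permutation p = 0.75). Whether this rat probe can pair with hamster Nkx6.1 RNA is not given in the sources used here. No probe with a symbol stood for Pdx1.

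The clearest result was a set of genes lower in Nkx6.1 islets. In the comparison of all probes, 34 passed a limma adjusted p of 0.05, or 0.133% of those tested. Of these, 32 were lower in Nkx6.1 islets (0.125%) and 2 were higher (0.00781%). The size of the differences ran between 1.73 and 9.28 log2 units, while the median over all probes was 0.02. In 29 of the 32 lower probes, the mean ratio in Pdx1 islets was above 0, so these RNAs were more abundant in Pdx1 islets than in the reference pool. All 34 had groups that did not overlap, which held for 12.1% of all probes. The lower probes with a symbol stood for 19 genes, and 12 of the 34 had no symbol here. At an unadjusted p under 0.05 there were 815 probes higher and 1000 lower in Nkx6.1 islets. The count of 34 depended on single arrays: it was 92 without Nkx6.1 2, 11, 12 and 13 without Nkx6.1 3, 4 and 5, and 12, 7 and 7 without Pdx1 1, 2 and 3. In 13 of the 34 probes, at least 1 value was identical to that of 10 or more probes on the same array, as counted on the tested probes. These were Nkx6.1 values in 11 probes, among them 3 of 3 for Krt25 and 3 of 4 for Gpr149, and Pdx1 values in 2, Oasl and Slc26a5. What such repeated values stand for is not given in the sources used here.

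**Figure D1:**
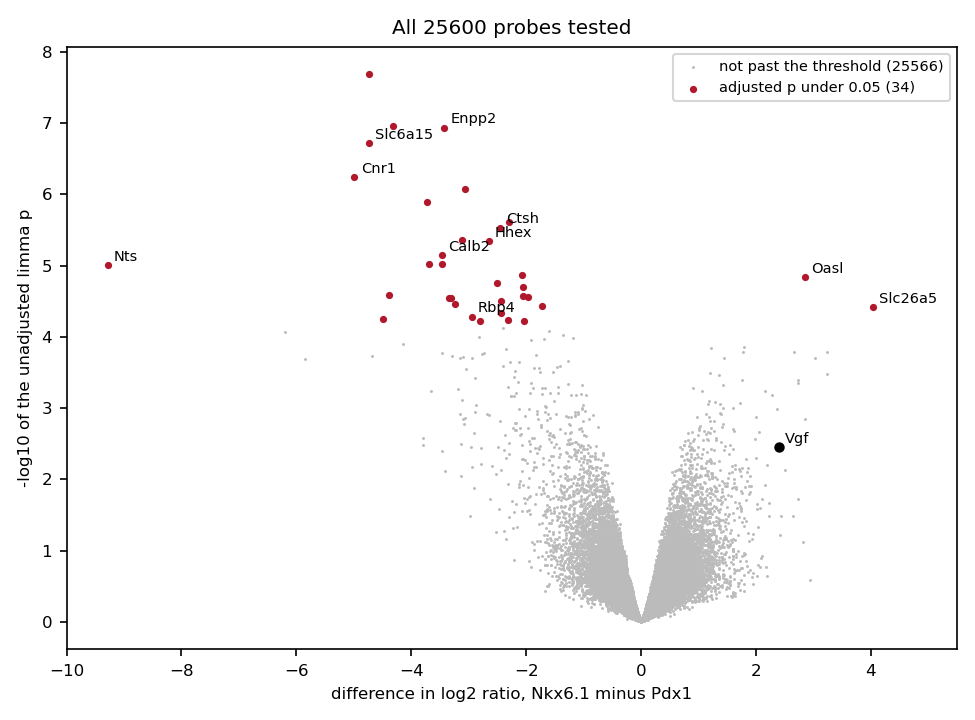
Difference in log2 ratio (Nkx6.1 minus Pdx1, x axis) against -log10 of the unadjusted limma p (y axis) for the 25600 probes tested. The 34 probes past the adjusted threshold (red) lie mostly on the left, with Nts at -9.28, and Vgf (black) is at 2.40 and below the threshold.

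Nts, which encodes the gut and brain peptide neurotensin, had the largest difference. Its log2 ratio was -0.62, -3.31, -4.63 and -2.63 on Nkx6.1 arrays 2 to 5 and 6.38, 6.83 and 6.26 in Pdx1 islets. Nkx6.1 islets varied widely and lay below the reference pool throughout, and Pdx1 islets lay far above it. The difference was -9.28 (SE 0.85, limma adjusted p = 0.0168). The bGAL values were -2.18 to 0.00 on 4 arrays, below every Pdx1 value. Among the other neuropeptides, Penk, the enkephalin precursor, read -3.11, -1.59, -3.07, -3.18 and -2.98 in Nkx6.1 islets and -1.27, -0.81 and -1.06 in Pdx1 islets. The groups did not overlap, but the difference of -1.74 did not pass with all arrays (adjusted p = 0.263). Without Nkx6.1 2, the Penk difference was -2.04 and did pass (adjusted p = 0.00471). The neuropeptide list of 30 measured genes held 1 gene higher and 4 lower at an unadjusted p under 0.05, or 3.33% and 13.3%. Over all 12498 genes the shares were 4.2% higher and 4.78% lower. The list's median difference was 0.15, and 21 of the 30 were positive, against 53.4% of all genes.

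Promoters are shown for 3 genes: Nts, for the largest difference; Krt25, as the gene whose promoter held the longer homeodomain motif; and Rbp4, as a gene for which bGAL islets resembled Pdx1 islets. Each run is the 250 bases before the annotated start on GRCr8, from RefSeq, written 5′ to 3′ on the gene's strand, at chr7:39460889-39461138 (minus strand) for Nts, chr10:84771198-84771447 (minus strand) for Krt25 and chr1:245313552-245313801 (minus strand) for Rbp4. Capitals mark TAAT on either strand, the core that homeodomain proteins bind.
Nts: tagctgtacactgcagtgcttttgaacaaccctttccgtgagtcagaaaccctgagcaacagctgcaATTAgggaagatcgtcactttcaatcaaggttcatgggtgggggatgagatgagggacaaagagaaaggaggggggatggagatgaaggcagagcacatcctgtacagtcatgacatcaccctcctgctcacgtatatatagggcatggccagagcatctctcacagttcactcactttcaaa
Krt25: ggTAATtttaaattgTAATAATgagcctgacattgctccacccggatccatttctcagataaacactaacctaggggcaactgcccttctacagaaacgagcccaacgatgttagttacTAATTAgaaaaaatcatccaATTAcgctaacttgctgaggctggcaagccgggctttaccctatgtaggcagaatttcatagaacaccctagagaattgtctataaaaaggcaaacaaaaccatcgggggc
Rbp4: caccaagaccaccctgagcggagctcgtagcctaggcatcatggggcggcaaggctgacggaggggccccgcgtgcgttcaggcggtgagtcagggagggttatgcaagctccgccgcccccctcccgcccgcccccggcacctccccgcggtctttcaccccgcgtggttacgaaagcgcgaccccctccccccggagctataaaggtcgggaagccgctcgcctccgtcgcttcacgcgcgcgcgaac
Of the 21 genes that passed, 13 had a promoter in the table. TAAT on either strand was in 6 of the 13 (46.2%) and in 57.0% of all 33469 promoters. The longer palindrome TAATTA, which contains TAAT, was in 1 of the 13 (7.69%), Krt25, and in 4.86% of all promoters. TGACG, the core of the cAMP response element, read on both strands, was in 3 of the 13 (23.1%) and in 18.2% of all promoters. These matches are letters in a window and are given as a description.

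The lower genes included receptors, a transporter and a channel of excitable cells, which are described by role with no test of them as a group. Cnr1, the CB1 cannabinoid receptor, read -0.04, 0.76, 0.48 and 0.96 on Nkx6.1 arrays 2 to 5 and 5.52, 5.20 and 5.87 in Pdx1 islets. Nkx6.1 islets were near the reference pool and Pdx1 islets were far above it. The difference was -4.99 (SE 0.30, adjusted p = 0.00292). The 3 bGAL values of Cnr1 ran from 0.80 and 4.42 to one above every Pdx1 value. Slc6a15, a neutral amino acid transporter of neurons, read -0.07, -0.79, -0.12 and -0.61 in Nkx6.1 islets and 4.24, 4.44 and 4.33 in Pdx1 islets. The groups were again far apart, by -4.73 (SE 0.25, adjusted p = 0.0012), and the 2 bGAL values of Slc6a15 were both near 0. Cnr1, Slc6a15 and Enpp2 were the named genes that passed whichever single array was left out.

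The orphan receptors Gpr149 and Gpr85 differed by -3.47 and -2.50. Gpr149 read -0.58 to 0.00 in Nkx6.1 islets and 2.57 to 3.72 in Pdx1 islets, with both bGAL values near 0. Gpr85 read 1.10 to 1.77 in Nkx6.1 islets and 3.54 to 4.00 in Pdx1 islets, with bGAL values between 2.27 and 7.25. The bGAL islets thus sided with Nkx6.1 islets for Gpr149 and reached beyond both groups for Gpr85. Calb2, the calcium-binding protein calretinin of neurons, read 1.38, 0.34, 0.55 and 0.38 in Nkx6.1 islets and 3.88, 4.27 and 4.26 in Pdx1 islets, a difference of -3.47 (adjusted p = 0.0153). Mdga2, a cell-surface protein that limits synapse formation, differed by -3.34, with -0.05 to 1.30 in Nkx6.1 islets and 3.78 to 4.47 in Pdx1 islets. The bGAL values of Mdga2 were 1.78 to 7.39, above every Nkx6.1 value, whereas the 2 of Calb2 were 0.46 and near 0.

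Unc13c and Kcnc2 showed how far a call can depend on the probe. Unc13c, which primes synaptic vesicles, differed by -2.06 on the probe that passed, and its other 4 probes differed by -2.30 to 0.58. Kcnc2, a fast potassium channel, differed by -2.03 on the probe that passed and by -0.86 and -0.20 on its others. Prkcb, a protein kinase C, was more even: its passing probe differed by -2.44, and its others by -2.94 and -3.08 without passing (adjusted p = 0.0856 and 0.257). All 3 Prkcb probes passed without Nkx6.1 2. On the probe that passed with all arrays, the bGAL values of Prkcb were 1.61 to 7.67, above every Nkx6.1 value. The olfactory receptor gene Olr1428 differed by -2.31.

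Secreted proteins and enzymes were also among the lower genes. Enpp2 encodes autotaxin, a secreted enzyme that makes lysophosphatidic acid, and it had a value on every array. Its log2 ratio was 1.94, 1.46, 1.66, 1.43 and 1.95 in Nkx6.1 islets and 5.24, 5.14 and 4.95 in Pdx1 islets. Both groups were tight and clearly separate, with a difference of -3.42 (SE 0.20, adjusted p = 9.82e-04), or 10.7-fold lower. The bGAL values of Enpp2 were 2.20 to 3.27, above every Nkx6.1 value and below every Pdx1 value. Ctsh, the lysosomal protease cathepsin H, passed on both of its probes, by -2.46 and -2.08. The first Ctsh probe read -2.16 to -1.63 in Nkx6.1 islets, 0.17 to 0.85 in Pdx1 islets and -1.77 to -0.70 in bGAL islets, so bGAL islets were on the Nkx6.1 side.

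Bmp3, a secreted member of the BMP family, differed by -3.11 on one probe and by -2.35 on the other, which did not pass with all arrays (adjusted p = 0.0826) and did without Nkx6.1 2 (-2.13, adjusted p = 0.0372). The probe of Bmp3 that passed read -1.70 to -0.98 in Nkx6.1 islets and 1.38 to 1.88 in Pdx1 islets. Map2k6, a kinase that activates p38, had the smallest difference of the genes that passed, -1.73, with -3.51 to -2.88 in Nkx6.1 islets and -1.65 to -1.14 in Pdx1 islets. Both groups of Map2k6 were below the reference pool.

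Hhex and Rbp4, which mark islet cells other than beta cells, were lower in Nkx6.1 islets. Hhex, a homeobox factor that maintains delta cells, read -3.26, -3.86, -3.13, -3.49 and -3.08 in Nkx6.1 islets and -0.91, -0.88 and -0.34 in Pdx1 islets. The difference was -2.65 (SE 0.25, adjusted p = 0.0104), and the bGAL values of Hhex, -2.01 to -1.45, lay between the groups without touching either. Rbp4, the retinol carrier, read 1.41, 2.81, 1.50, 1.96 and 1.31 in Nkx6.1 islets and 4.45, 4.53 and 5.26 in Pdx1 islets. The difference was -2.95 (SE 0.38, adjusted p = 0.0443), and here the bGAL values, 4.29 to 4.91, overlapped those of Pdx1 islets. Rbp4 kept its call when Nkx6.1 2 was left out and lost it without any other single array. Sst itself, the delta-cell hormone, ranged over 2.49 to 6.38 in Nkx6.1 islets and 3.57 to 4.49 in Pdx1 islets, and the groups overlapped (difference -0.46, adjusted p = 0.876). The overlap came from Nkx6.1 2 alone: the other Nkx6.1 arrays read 3.03, 2.49, 3.07 and 2.67, and without Nkx6.1 2 the difference was -1.17 and did not pass (adjusted p = 0.164). In whole islets, fewer cells of a type and less RNA per cell cannot be told apart. Of the 17 measured genes of the list of islet hormones and non-beta markers, Hhex and Rbp4 were the 2 with an unadjusted p under 0.05. Both were lower, beside shares over all genes of 4.78% lower and 4.2% higher. Without Nkx6.1 2, 5 of the 17 were lower and 1 was higher at that level, or 29.4% and 5.88%, against 6.93% of all genes lower and 7.71% higher in that fit.

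Across the genes that passed, bGAL islets were not uniformly on one side. Of 29 passing probes with at least 2 bGAL values, the bGAL mean was nearer the Nkx6.1 mean for 19 and nearer the Pdx1 mean for 10. Among the 18 lower probes with a symbol and such values, Pdx1 islets were above every bGAL value in 11, and Nkx6.1 islets were below every bGAL value in 9. No test was made of these counts.

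**Figure D2:**
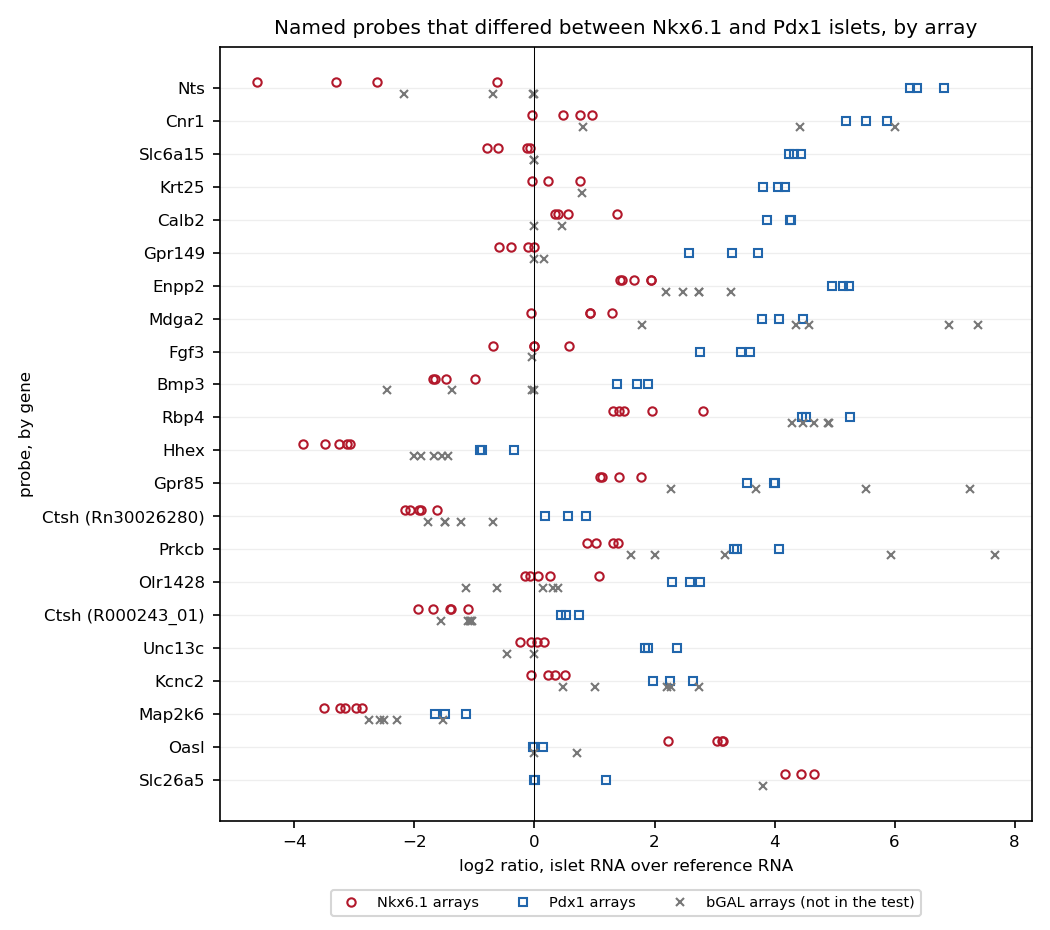
Log2 ratio of islet RNA over reference RNA (x axis) for the 22 probes with a symbol that passed (y axis). The most negative difference, Nkx6.1 minus Pdx1, is at the top. Each array has 1 mark: Nkx6.1 red circles, Pdx1 blue squares and bGAL grey crosses. Nkx6.1 and Pdx1 marks are apart in every line, whereas bGAL marks sit with Nkx6.1 for Nts, with Pdx1 for Rbp4 and between them for Enpp2 and Hhex.

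Among the 7635 probes nearly empty on the bGAL arrays, 5 passed, or 0.0655%. Slc26a5, the gene of the motor protein prestin, was higher in Nkx6.1 islets. It read 4.45, 4.65 and 4.18 on Nkx6.1 arrays 3 to 5 and 1.19, -0.01 and 0.00 in Pdx1 islets, with 1 bGAL value of 3.80. The difference was 4.03 (adjusted p = 0.0347), although 2 of the 3 Pdx1 values were at 0 within 0.01. Krt25, a hair keratin, read 0.76, -0.03 and 0.22 in Nkx6.1 islets and 4.17, 4.05 and 3.80 in Pdx1 islets, a difference of -3.69. Fgf3, a secreted growth factor, read -0.02, 0.57, 0.00 and -0.69 in Nkx6.1 islets and 2.75, 3.45 and 3.60 in Pdx1 islets, a difference of -3.30. The other 2, Rn30013884 and Rn30011047, have no symbol here and differed by -4.49 and -4.39.

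Interferon and antigen-presentation genes leaned the other way. Oasl, an interferon-induced antiviral protein, read 3.13, 3.14, 3.05 and 2.22 on Nkx6.1 arrays 2 to 5 and 0.14, -0.02 and -0.01 in Pdx1 islets. It was higher in Nkx6.1 islets (log2 difference 2.85, SE 0.28, adjusted p = 0.0216), and the 2 bGAL values of Oasl were 0.71 and 0.00. No fold is given, since 2 of its 3 Pdx1 values were each shared exactly by other probes, 22 probes on Pdx1 2 and 18 on Pdx1 3 with Oasl counted. A second Oasl probe differed by 1.04 and did not pass. Of the 33 measured genes of the list, 11 were higher and 0 were lower at an unadjusted p under 0.05. That was 33.3% higher, against 4.2% of all genes. As with every list here, its members were chosen with earlier results of these data known, so the share is a description. No members of this list or the next were set aside for that. The list's median difference was 0.65, against 0.04 over all genes, and Oasl was its 1 gene past the adjusted threshold.

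The proteasome subunit Psmb9 read 0.82, 1.99, 0.87, 1.13 and 1.05 in Nkx6.1 islets and 0.02, -0.19 and -0.12 in Pdx1 islets. Psmb8, another subunit of the immunoproteasome, averaged -0.21 in Nkx6.1 islets and -1.10 in Pdx1 islets. Neither passed with all arrays (differences 1.27 and 0.89, adjusted p = 0.281 and 0.285), although their groups did not overlap. Dhx58, a sensor of viral RNA, differed by 0.82 (adjusted p = 0.317). Without Nkx6.1 2, 11 genes of the list were higher and 2 lower at an unadjusted p under 0.05. The shares over all genes in that fit are those given above with the islet hormones. Psmb9 then passed at a difference of 1.06 (adjusted p = 0.041).

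NF-kB targets, chemokines and adhesion molecules leaned the same way. Of 27 measured genes, 7 were higher and 0 lower at an unadjusted p under 0.05, against 4.2% and 4.78% of all genes. The median difference was 0.35. None passed the adjusted threshold with all arrays. Ccl20, a chemokine for lymphocytes, read -1.32, -0.66, -0.08 and -1.91 on Nkx6.1 arrays 2 to 5 and -3.99, -3.33 and -3.83 in Pdx1 islets, a difference of 2.73 (adjusted p = 0.136). Icam1, a leukocyte adhesion molecule, read -0.53, 1.26, -0.84, -0.25 and -0.76 in Nkx6.1 islets and -1.96, -2.35 and -2.31 in Pdx1 islets. Its difference was 1.99 with all arrays (adjusted p = 0.313), and 1.62 without Nkx6.1 2, where it passed (adjusted p = 0.027). Cxcl9 and Cxcl1 differed by 1.15 and 0.90. Without Nkx6.1 2, 10 genes of the list were higher and 1 was lower at that level, in the fit whose shares over all genes are given above. Both groups received virus, and how much virus each islet pool took up was not tested.

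Leukocyte markers are given beside these genes. Of 23 measured macrophage and leukocyte markers, 0 were higher and 0 lower at an unadjusted p under 0.05 by limma (0 passed the adjusted threshold). Their median level was -1.31 to -0.68 on the Nkx6.1 arrays and -1.08 to -0.55 on the Pdx1 arrays. Ptprc, the pan-leukocyte marker, was below the reference pool on every array, at -4.55 to -0.22 over its probes in Nkx6.1 islets and -4.02 to -2.16 in Pdx1 islets.

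Acute phase and complement genes were split, with 4 of 25 higher and 2 lower at an unadjusted p under 0.05. The shares over all genes were 4.2% and 4.78%, and the list's median difference was 0.45. Lbp, which binds bacterial lipopolysaccharide, differed by 1.37 and Saa3, an acute phase protein, by 1.58. The secreted lectin Reg3a differed by -1.03. None of the list passed the adjusted threshold with all arrays.

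**Figure D3:**
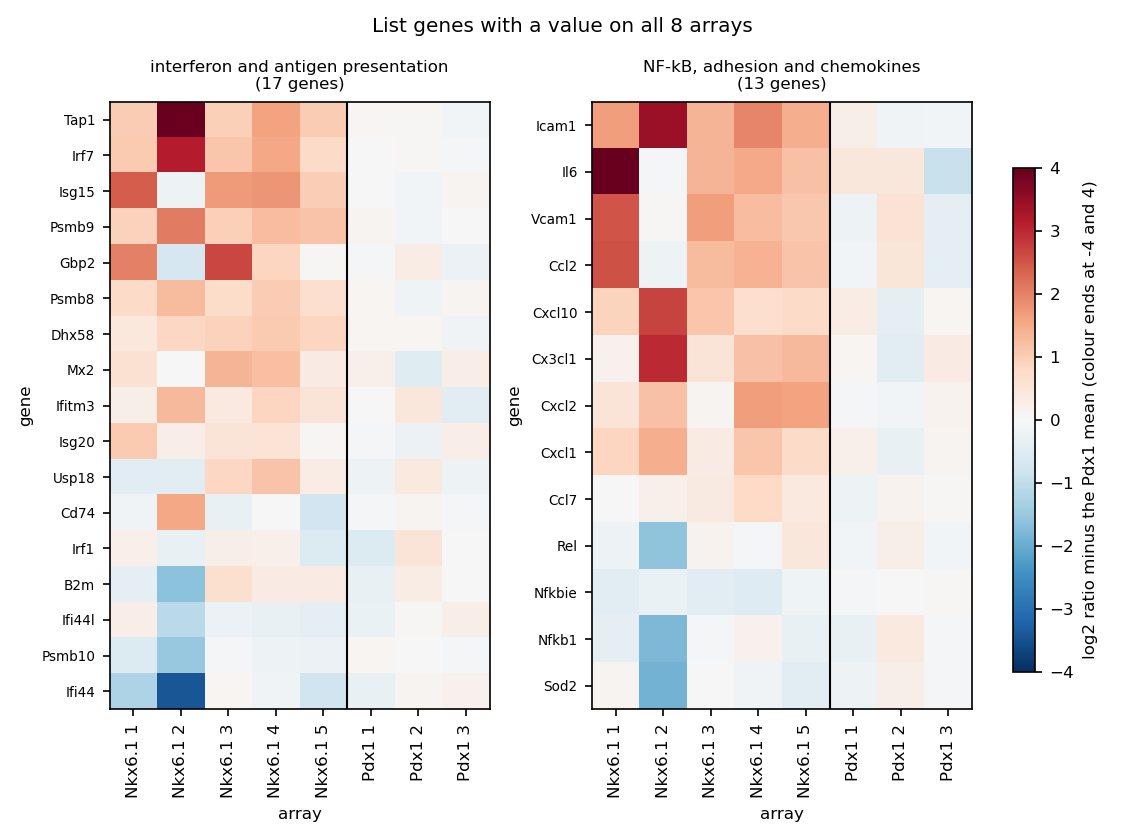
Log2 ratio minus the Pdx1 mean (colour) for the genes of 2 lists with a value on all 8 arrays, by array, Nkx6.1 left of the black line and Pdx1 right of it. Tap1, Irf7, Psmb9 and Icam1 are red on all 5 Nkx6.1 arrays, most so on Nkx6.1 2, while the lowest genes of each panel are blue mainly on that array.

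The list of synaptic and neuronal genes held 12 of 31 measured genes lower and 1 higher at an unadjusted p under 0.05. The shares over all genes were 4.78% lower and 4.2% higher. Of the list, 4 passed the adjusted threshold (Enpp2, Slc6a15, Calb2 and Gpr149), and the median difference was -0.99. The list was written with earlier results of these data known, and 9 of its genes came from them. Without those 9, 3 of 22 were lower and 1 higher, 0 passed the adjusted threshold, and the median was -0.15. Calb1, the calcium buffer calbindin, read 1.57, -0.16 and 0.81 on Nkx6.1 arrays 3 to 5 and 5.37, 4.53 and 4.74 in Pdx1 islets. The groups of Calb1 were far apart at -4.14, without passing with all arrays (adjusted p = 0.0751). Calb1 passed at the same difference in the fit without Nkx6.1 2, an array with no value for it (adjusted p = 0.0349). Of 10 measured glia and nerve markers, 2 were higher and 0 lower at an unadjusted p under 0.05. Their median level was -0.41 to 0.61 on the Nkx6.1 arrays and -0.11 to -0.07 on the Pdx1 arrays.

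Genes of cAMP and G-protein signalling, the pathway through which gut hormones amplify insulin secretion, leaned lower in count but not in median. Of 32 measured, 2 were higher and 8 lower at an unadjusted p under 0.05, against 4.2% and 4.78% of all genes. With all arrays, 0 passed the adjusted threshold, and the median was 0.06. Adcy2, an adenylyl cyclase, read -1.96, -2.40, -0.21, -1.42 and -1.90 in Nkx6.1 islets and 0.25, 1.02 and 0.26 in Pdx1 islets. Prkar2b, a regulatory subunit of protein kinase A, read -0.26 to 1.15 in Nkx6.1 islets and 1.83 to 2.02 in Pdx1 islets. Their differences were -2.09 and -1.30 (adjusted p = 0.29 and 0.335). Of the phosphodiesterases, which break cAMP down, Pde4b differed by 0.85 and Pde8b by 3.23 on 1 of 3 probes (adjusted p = 0.344 and 0.0854). That Pde8b probe passed in the fit without Nkx6.1 2 (3.23, adjusted p = 0.0311). It had 3 Nkx6.1 values, 3.87, 3.32 and 3.22, and 2 Pdx1 values, 0.47 and -0.005. The value of -0.005 was shared exactly by Cela2a on the same array.

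Among the ion channels, 2 of 27 were higher and 3 lower at an unadjusted p under 0.05, with a median of 0.07. Over all genes, 4.2% were higher and 4.78% lower. Scn9a, a sodium channel of excitable cells, read 1.99, 2.54 and 2.57 on Nkx6.1 arrays 3 to 5 and 4.97, 4.11 and 4.64 in Pdx1 islets, a difference of -2.21 (adjusted p = 0.123). Its bGAL values were 2.29 to 11.58, mostly above both groups. Kcnq5, a potassium channel, differed by -2.19 (adjusted p = 0.252).

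Vgf, the gene of the series title, was higher on every Nkx6.1 array. It read 3.41, 5.73, 3.26, 2.95 and 3.38 in Nkx6.1 islets and 1.35, 1.29 and 1.39 in Pdx1 islets, and the bGAL values were 1.30 to 2.31. The mean was 3.74 ± 1.12 in Nkx6.1 islets and 1.34 ± 0.05 in Pdx1 islets (SD, n = 5 and 3 arrays), a 5.28-fold difference (log2 2.40, SE 0.59). It did not pass limma's adjusted threshold over all probes (adjusted p = 0.339). The two-sided exact permutation p was 0.0179, the smallest that 56 splits allow. One array carried much of the spread: without Nkx6.1 2 the difference was 1.91 and passed (adjusted p = 0.00605). The Pdx1 values lay at the low end of the bGAL values.

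Of 13 measured granins and prohormone-processing genes, Vgf was the 1 higher at an unadjusted p under 0.05, and 0 were lower. Over all genes, 4.2% were higher and 4.78% lower. The list's median was 0.27 with all arrays and -0.09 without Nkx6.1 2, on which most of its genes were at their highest. Scg5, a chaperone of the convertase Pcsk2, read 6.80, 9.90, 7.03, 6.45 and 7.07 in Nkx6.1 islets and 7.06, 6.57 and 6.90 in Pdx1 islets, and the groups overlapped. Ptprn2, a granule membrane protein, and Furin, a convertase, differed by 0.51 and 0.20.

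**Figure D4:**
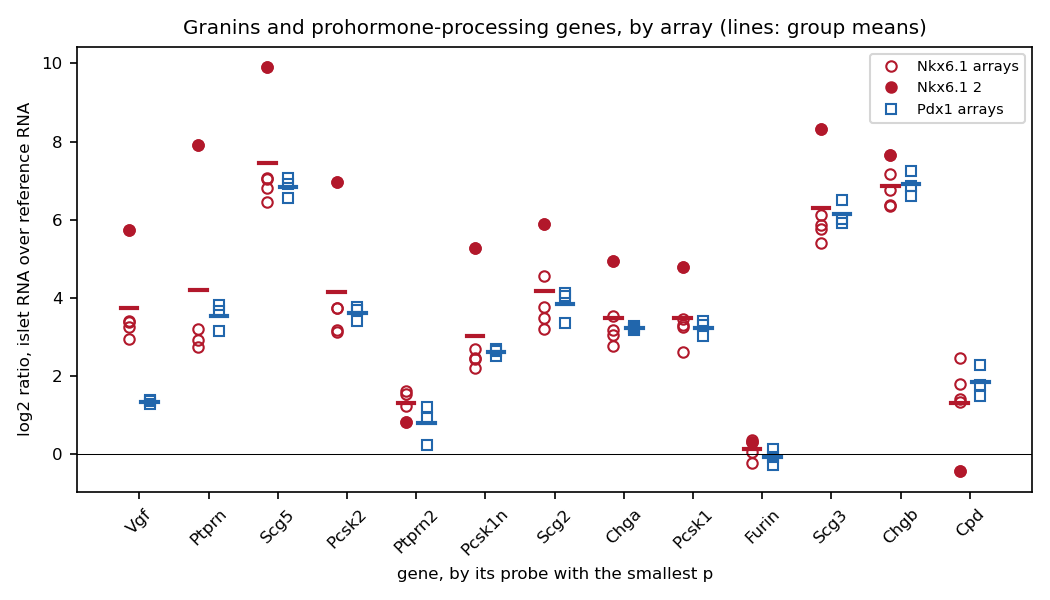
Log2 ratio of islet RNA over reference RNA (y axis) by gene (x axis, by falling difference), with 1 mark per array, Nkx6.1 red circles (Nkx6.1 2 filled) left of Pdx1 blue squares, and a line at each mean. Only for Vgf are all Nkx6.1 marks above all Pdx1 marks among these 13 genes, and Nkx6.1 2 is the highest mark for most.

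Genes of beta-cell function differed little beside the spread of the arrays. Of 19 measured, 0 were higher and 0 lower at an unadjusted p under 0.05 by limma, and 17 had a positive difference, with a median of 0.41 (0.07 after quantile normalization). Abcc8, the sulfonylurea receptor, differed by 0.89 (adjusted p = 0.736) and Slc2a2, the glucose transporter GLUT2, by 0.43 (adjusted p = 0.766). Slc2a2 read 6.94 to 7.84 in Nkx6.1 islets and 6.73 to 7.26 in Pdx1 islets, and its sign turned under quantile normalization and under scaling to one spread. Of 23 islet transcription factors, 0 were higher and 2 lower at that level: Hhex, which passed, and Nkx2-2. The shares over all genes were 4.2% higher and 4.78% lower. Nkx2-2, a factor for beta-cell fate, differed by -2.63 on 1 of 2 probes (adjusted p = 0.576) and by -0.43 on the other. The first of these read -0.47 to -0.21 on 3 Nkx6.1 arrays and 3.57 and 0.94 on 2 Pdx1 arrays.

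The proliferation lists were near the shares over all genes, 4.2% higher and 4.78% lower. Of 36 mitosis genes, 2 were higher and 0 lower at an unadjusted p under 0.05, with a median of 0.03. Of 29 genes of G1/S and DNA replication, 0 were higher and 2 lower, with a median of -0.04. The lower ones were Ccnd2, the cyclin D2 of beta cells, at -1.69, and Rpa1, a single-strand DNA-binding subunit, at -1.05. Ccnd2 read 2.38, 0.17, 2.66, 2.21 and 2.53 in Nkx6.1 islets and 3.53, 3.55 and 3.96 in Pdx1 islets, without passing (adjusted p = 0.537). Aspm, a mitotic spindle protein outside these lists that was chosen after its values were seen, averaged -2.97 in Nkx6.1 islets and -1.78 in Pdx1 islets, and the groups did not overlap. Its difference of -1.19 did not pass with all arrays (adjusted p = 0.0656) and did without Nkx6.1 2 (-1.20, adjusted p = 0.0314). Cell-cycle inhibitors and p53 targets had 1 of 13 higher and 1 lower.

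Of the metabolic and housekeeping lists, those of fatty acid and ribosomal protein genes went furthest past the shares over all genes with all arrays. Those shares were 4.2% higher and 4.78% lower. Fatty acid and lipid storage genes had 4 of 31 higher (12.9%) and 0 lower, and Cidea, a lipid-droplet protein, differed by 2.00 (adjusted p = 0.225). Glycolysis and hypoxia genes had 0 of 25 and respiratory chain genes 0 of 43 in either direction by limma. Cholesterol synthesis had 1 of 19 higher and 1 lower, and the unfolded protein response 1 of 28 higher and 1 lower. Without Nkx6.1 2, the unfolded protein response list held 7 higher and 1 lower and the fatty acid list 7 higher and 0 lower, against 7.71% of all genes higher and 6.93% lower. Ribosomal protein genes had 1 of 45 higher and 6 lower (13.3%), by at most 0.98, and apoptosis genes 1 of 25 higher. Exocytosis genes had 1 of 23 higher and 0 lower.

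Immediate early genes and MAP kinase feedback inhibitors had 4 of 34 higher and 1 lower at an unadjusted p under 0.05. The shares over all genes, here and for the next lists, were 4.2% higher and 4.78% lower. Dusp1, a phosphatase that shuts off MAP kinases, read -3.23, -3.00, -2.97, -2.94 and -3.29 in Nkx6.1 islets and -4.31, -4.11 and -4.49 in Pdx1 islets. The difference of 1.21 was just outside the threshold with all arrays (adjusted p = 0.082) and past it without Nkx6.1 2 (1.19, adjusted p = 0.0442), and the bGAL values of Dusp1, -4.40 to -4.20, lay within the Pdx1 range. Id and BMP or TGF-beta genes had 2 of 21 higher and 1 lower. Id4, an inhibitor of helix-loop-helix factors, differed by -2.18 and Bmp4, a BMP ligand, by 1.19, without passing (adjusted p = 0.279 and 0.638). The groups of Bmp4 overlapped. Bmp4 averaged -2.53 in Nkx6.1 islets, -3.72 in Pdx1 islets and -0.86 in bGAL islets, above both. Of 23 genes that beta cells normally keep silent, 1 was higher and 1 lower. Aldh1a3, which makes retinoic acid, differed by 1.42, and Lmo4, a LIM-domain adaptor, by -2.23, without passing (adjusted p = 0.205 and 0.272). Aldh1a3 averaged -2.38 in Nkx6.1 islets, -3.80 in Pdx1 islets and -0.61 in bGAL islets, above both.

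Markers of other pancreatic cells were mixed. Of 16 duct markers, 5 were higher and 1 lower at an unadjusted p under 0.05, against 4.2% and 4.78% of all genes. Their median difference was 0.45, with median levels of -0.12 to 0.66 on the Nkx6.1 arrays and -0.04 to 0.04 on the Pdx1 arrays. Krt19, a duct keratin, read 1.74 to 3.34 in Nkx6.1 islets and 0.71 to 1.44 in Pdx1 islets, whereas Car2, the carbonic anhydrase of duct cells, differed by -2.12 (adjusted p = 0.0911) and passed without Nkx6.1 2 (-2.25, adjusted p = 0.0492). Of 21 acinar markers, 0 were higher and 2 lower. Their median levels were 2.07 on Nkx6.1 1, -0.06 to 0.46 on the other Nkx6.1 arrays and -0.06 to 0.28 on the Pdx1 arrays. Nkx6.1 1 had no value for most of these markers, so its median rests on fewer genes. Cpb1, a pancreatic carboxypeptidase, read -0.41 to 0.40 on 4 Nkx6.1 arrays and 3.06 and 2.48 on 2 Pdx1 arrays, a difference of -2.81 (adjusted p = 0.0648). Prss1, trypsinogen, overlapped between the groups, at -0.15 to 7.32 in Nkx6.1 islets and 2.31 to 4.13 in Pdx1 islets. Fibroblast markers had 1 of 23 higher and 0 lower, and endothelial markers 0 of 15 in either direction. The part of these cell types in the genes that passed was not tested.

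**Figure D5:**
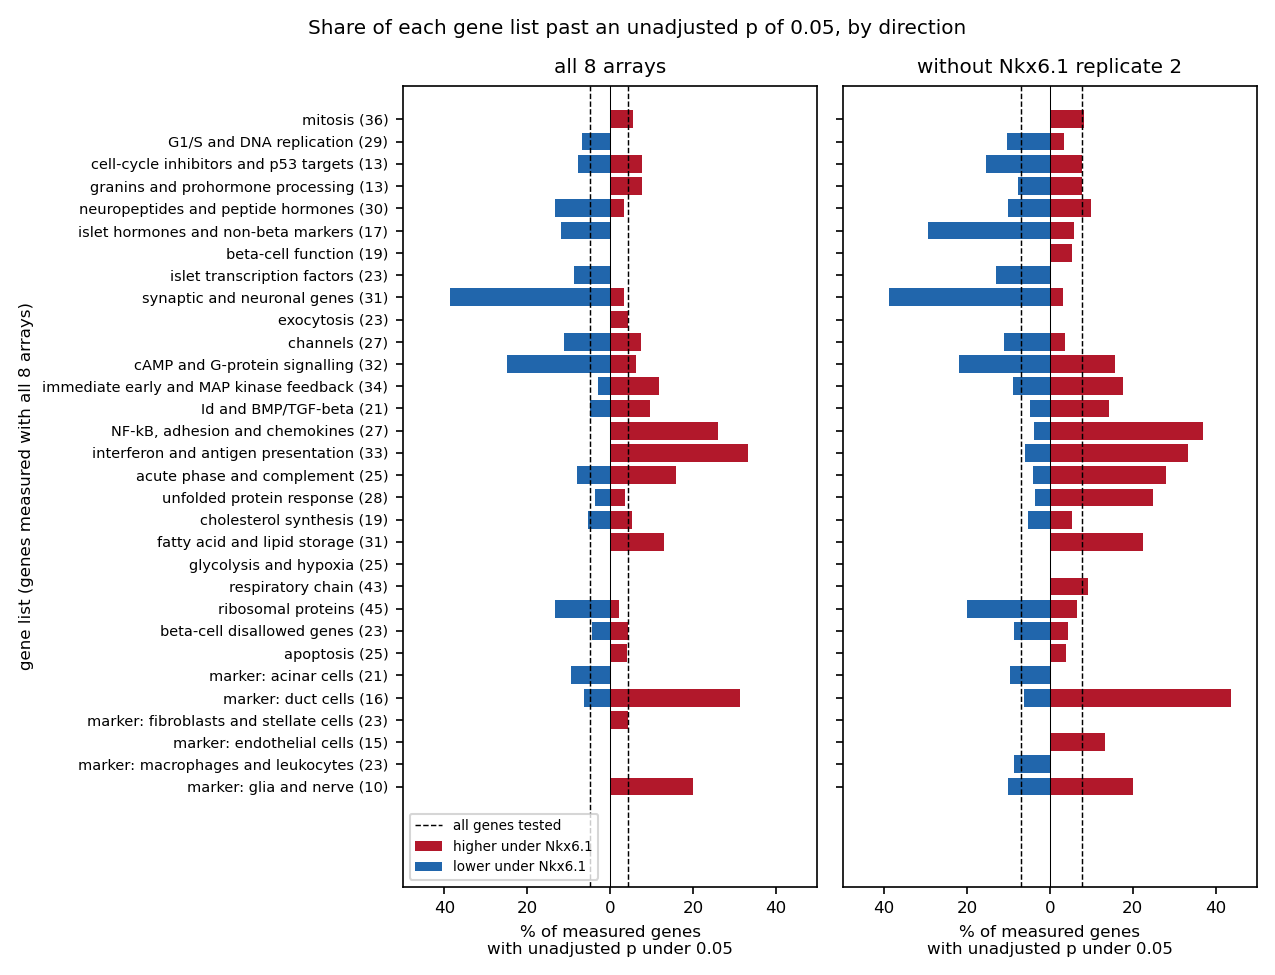
Share of the measured genes of each list (number in brackets) with an unadjusted p under 0.05, higher in Nkx6.1 islets to the right (red) and lower to the left (blue), with all 8 arrays and without Nkx6.1 2. Dashed lines mark the share over all genes, 4.2% higher and 4.78% lower with all arrays. In both panels, the interferon, NF-kB and duct lists have the 3 longest bars on the right. The synaptic list has the longest on the left in both. Other lists, such as fatty acid genes on the right and cAMP genes on the left, also extend past the lines. All lists were written with earlier results of these data known. Of the synaptic genes, 9 came from those results, and without those 9, 3 of 22 were lower with all arrays.

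Among probes just outside the threshold, 8 more were higher in Nkx6.1 islets without overlap and stand here to complete 10 higher genes. They did not pass with all arrays (adjusted p = 0.0819 to 0.128), and 3 of them, Tekt1, Dusp1 and Pde8b, passed without Nkx6.1 2. Slc30a2, a zinc transporter, read -0.47, -2.09, -1.76, -1.18 and -2.28 in Nkx6.1 islets and -3.83, -4.69 and -5.22 in Pdx1 islets, a difference of 3.03. Fanca, a DNA repair protein, differed by 1.79 on 1 of 5 probes, and its other probes by -0.10 to 0.60. The rest, beside Dusp1 and Pde8b given above, were Tekt1 at 1.76 (1.92 without Nkx6.1 2, adjusted p = 0.0403), Prdm2 at 1.44, Rnase3 at 1.36 and Plekhg3 at 1.20.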

How the data were processed

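Each deposited value is a log2 ratio, islet RNA (Cy5) over a common rat reference RNA (Cy3) on spotted rat oligonucleotide arrays, made by the authors from 500 ng of RNA amplified in 2 rounds, per the labels. Base 2 and a centring of each array near 0 were read from the values. How background was corrected, arrays normalized and values left empty is not given in the sources used here. Depth does not apply to these arrays: their number sets the precision.

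Groups follow the virus in the labels. Probes with at least 2 values in each group were fitted with limma 3.58.1 (R 4.3.3) on the 8 arrays alone, two-sided, with Benjamini-Hochberg adjustment over all 25600 probes and a threshold of 0.05. The script was tested on simulated data. Vgf and Nkx6-1 also had an exact permutation test. Of 15807 probes with a symbol, 3713 were updated and 60 not matched to current names.

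The 31 lists (956 genes, 749 measured) were counted by each gene's probe with the smallest p. A list median takes each gene's mean over its complete probes. Members, lists and motifs were chosen with earlier results of these data known. Named genes are Nkx6-1, Pdx1 and Vgf, up to 15 that passed in each direction (filled to 10), up to 6 that passed with under 2 bGAL values, and up to 4 per list by smallest p. Map2k6, Olr1428, Unc13c, Kcnc2, the cell-type markers and the genes named from fits without Nkx6.1 2 were chosen after their values were seen. Alternatives covered centring, quantile normalization, scaling, filters, values near 0, a variance trend, all 13 arrays, array weights, a replicate block and leaving out arrays.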

Additional observations from a re-analysis of the deposited data

Results flagged for a closer look

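Of 24 probes examined for a single array far from the rest of its group, 2 held such an array. Chance gives about 1 in 20 per group rather than per probe, so the 2 are not read as an excess. For Vgf the Nkx6.1 2 array read 5.73, against 2.95 to 3.41 on the other 4 Nkx6.1 arrays. For Oasl the Nkx6.1 5 array read 2.22, against 3.05 to 3.14 on the other 3 Nkx6.1 arrays with a value. Both arrays stayed above every Pdx1 value of their gene.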

How the results depend on the processing

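The 34 passing probes became 60 after quantile normalization, 77 after scaling the arrays to one spread, 13 with complete probes alone, 16 with a robust variance trend, 267 with array weights and 119 without Nkx6.1 1 and 2. The count was between 7 and 92 when single arrays were left out: 34 without Nkx6.1 1, 92 without Nkx6.1 2, 11, 12 and 13 without Nkx6.1 3, 4 and 5, and 12, 7 and 7 without Pdx1 1, 2 and 3. All 34 probes were among the 92, the 119 and the 267. The split of higher against lower was 2 to 32 as reported, 15 to 62 after scaling, 15 to 77 without Nkx6.1 2 and 85 to 182 with array weights. Median centring, the other filters, dropping values near 0 and the fit over all 13 arrays gave 23 to 43. Most named genes therefore lose their call without some array, Rbp4 without any of 7, and the cause was not tested. Without Nkx6.1 1 and 2, Fanca, Prdm2, Lmo4, Scn9a, Kcnq5 and Cpb1, which pass in neither the fit of all arrays nor that without Nkx6.1 2, passed as well. The 5 passing probes nearly empty on bGAL arrays became 17 (quantile), 18 (scaling), 3 (symbols alone), 17 (without Nkx6.1 1 and 2) and 54 (array weights), 0 with complete probes or the trend, 0 among probes with no bGAL value, and 0 to 12 when single arrays were left out.

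The Vgf difference was 1.85 without Nkx6.1 1 and 2 and 1.91 with array weights, passing in both, and between 1.91 and 2.60 when single arrays were left out. The Nkx6-1 difference turned to -0.20 (quantile), -0.48 (scaling), and lay between -0.18 and 0.32 when single arrays were left out (below 0 without Nkx6.1 1 or Pdx1 2), and Slc2a2 to -0.51 (quantile) and -0.97 (scaling). With the replicate number as a block over 6 arrays, 0 of 21563 probes passed limma's threshold, 802 had an unadjusted p under 0.05, and 0 of the probes nearly empty on bGAL arrays passed. The Vgf difference was then 2.79. Same-numbered arrays did not deviate together from their group means (r = -0.06, -0.23 and -0.01). Such deviations sum to 0 within a group, and arrays of different number ranged from -0.26 to 0.27. This check therefore cannot settle whether the numbers pair the arrays.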

Other observations

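Without Nkx6.1 2, 92 of 25570 probes passed limma's threshold, and those with a symbol covered 45 genes lower and 13 higher in Nkx6.1 islets. Genes not described above were then among them, each given as the difference without that array. Cyp26a1, which breaks down retinoic acid, differed by -2.99. It read -1.10, -1.54 and -0.96 on Nkx6.1 arrays 3 to 5 and 1.45, 2.30 and 1.62 in Pdx1 islets, while the array left out read 1.91. Fgf13, a regulator of sodium channels, differed by -2.60, Glra1, a glycine receptor subunit, by -3.46, and Thbs4, a matrix protein, by -2.44. Rtn1, a reticulon of neuroendocrine cells, differed by -1.68, with 2.53 to 3.10 on the 4 Nkx6.1 arrays kept and 4.33 to 4.64 in Pdx1 islets. Among the higher genes, Cd24, a surface glycoprotein, differed by 1.71. It read 3.04, 2.79, 2.44 and 3.06 on the Nkx6.1 arrays kept and 1.19, 1.06 and 1.12 in Pdx1 islets, and -0.90 on the array left out. Grin2c, a glutamate receptor subunit, differed by 1.34. These genes were chosen after their values were seen.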
